A study of Mus musculus with 6 samples.

Results

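Replication-dependent histone genes were examined in mouse embryonic stem (ES) cells with and without the cohesin subunit Scc1 (Rad21), on Affymetrix Mouse Gene 1.0 ST arrays. Probe sets were chosen by gene symbol in the platform annotation, taking the H2ac, H2bc, H3c and H4c series and H1f1 to H1f6, with single and shared symbols alike. This gave 63 of the 21335 gene symbols on the array, on 53 of the 23410 probe sets that carry a symbol. Of these, 27 named a single gene and 26 named several. All 6 cultures were ES cells derived and kept in 2i, from a female of mixed C57BL/129 background, carried ERT2-Cre and received 4-hydroxytamoxifen (4-OHT) for 24 h. The 3 lox/lox cultures had both Scc1 alleles flanked by lox sites, so that Cre can remove the gene, and the 3 wt/wt cultures had normal alleles. The dose was 80 nM in the sample labels, whereas the design text gives the same figure in mM. Every culture had received 4-OHT, the labels name neither a clone nor the promoter behind Cre, and a difference between genotypes therefore includes whatever differed between the cell lines beforehand. The replicates are biological ones by the design text.

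Histone proteins package DNA, with pairs of H2A, H2B, H3 and H4 forming the nucleosome core and H1 binding the linker. Their replication-dependent genes are small, lack introns and lie in clusters, and they are transcribed in S phase, when new DNA has to be packaged. Their mRNAs end in a stem-loop instead of a poly(A) tail, which the stem-loop binding protein Slbp recognises, and the factor Npat drives their transcription. The labelling kit primes along the whole transcript, so that mRNAs without a poly(A) tail can be measured.

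Rad21, the targeted gene, lay at 10.05, 9.99 and 10.01 (log2 intensity) on the wt/wt arrays and at 6.08, 6.06 and 6.14 on the lox/lox arrays, a 15.2-fold lower level (adjusted p = 1.35e-08 in limma). The array medians over the whole table lay between 4.85 and 4.94, and 3 arrays per genotype limit the precision. Wt/wt replicate 2 and lox/lox replicate 3 were the least like the others of their genotype, with correlations over all probe sets of 0.9922 and 0.9933 against 0.9937, and of 0.9935 and 0.9936 against 0.9947. Of 16 ES cell markers, all lay above the table's median of 4.90 in both genotypes, and 2 were higher and 6 lower in lox/lox cells, beside 2.54% and 3.51% of all genes. The count of 2 became 1 when any array other than lox/lox replicate 1 was left out. Of 18 measured fibroblast markers, which would mark feeder cells, 10 lay above that median in each genotype and 0 passed in limma (3 at an unadjusted p under 0.05). Their summed log2 level ran from 98.5 to 101 on the wt/wt arrays and from 99.5 to 102 on the lox/lox arrays, and its part in the values below was not tested.

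The 53 probe sets stand for 63 gene symbols of the 65 that RefSeq (GRCm38.p6) lists under the same names, and the missing pair, H2ac14 and H2ac5-ps, are pseudogenes. Near-identical coding sequences decide how finely the genes can be told apart. Only 27 genes had a probe set of their own, 18 of them also on a shared one, and 36 genes were measured on shared probe sets alone. Of the 27, 23 lie in the large cluster on chromosome 13 and 4 in the smaller one on chromosome 3. Annotation entries held at most 20 accessions, and 24 of the 26 shared probe sets were at that number, so their gene lists may be incomplete. Among the members, 4 probe sets formed pairs with identical values on every array, which left 51 distinct rows.

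Most replication-dependent histone probe sets had nearly the same level in lox/lox and wt/wt cells, although 8 of the 27 single-gene ones lay at or below the table's median. Of the 53 probe sets 1 rose and 0 fell at an adjusted p under 0.05 in limma (1.89%), beside 6.06% of all 23410 probe sets called, 2.63% higher and 3.43% lower. At an unadjusted p under 0.05 there were 4 (7.55%), beside 17.9% of all. The median log2 difference, lox/lox minus wt/wt, was -0.058 over the single-gene and -0.051 over the shared probe sets, beside -0.0055 over all tested. In 52 of the 53, the 95% interval of the difference lay within 1.5-fold in both directions. The exception was H3c15, a dim probe set described with the H3 genes.

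**Figure D1:**
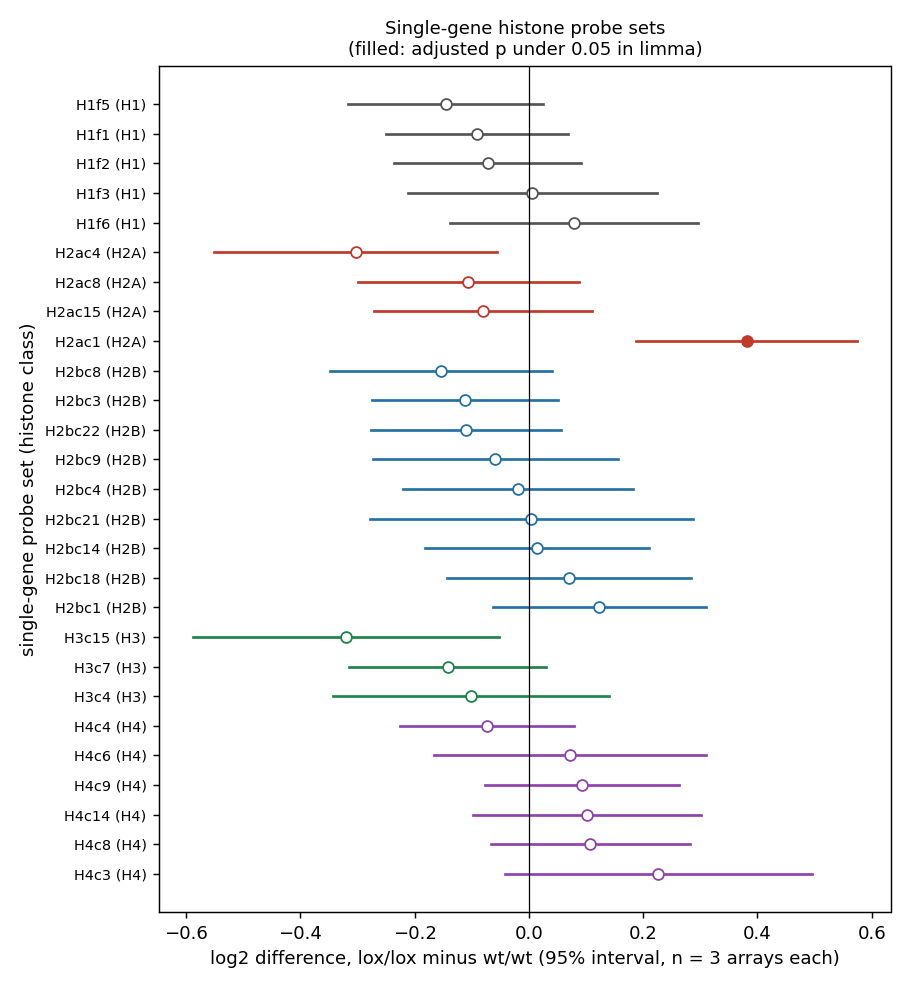
Log2 difference (lox/lox minus wt/wt, x axis) of the 27 single-gene histone probe sets (y axis, grouped by histone class), with 95% intervals from limma over 3 arrays per genotype. H2ac1, the filled point, was the only one of these to pass, at 0.38, and the others lay between -0.32 and 0.23.

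The gene that passed was H2ac1, which encodes TH2A, an H2A variant of testis and oocytes that its symbol places with the replication-dependent genes. H2ac1 stood at 8.99, 9.18 and 9.14 on the wt/wt arrays and at 9.60, 9.40 and 9.45 on the lox/lox arrays. All lox/lox values lay above all wt/wt values, as they did in 2 of the 53 members and in 10.5% of all probe sets. The means were 9.10 ± 0.10 and 9.48 ± 0.10 (SD, n = 3), a 1.30-fold higher level in lox/lox cells. The log2 difference was 0.38 with a standard error of 0.086, a 95% interval of 0.19 to 0.57 and an adjusted p of 0.0332 in limma. The call was lost whenever 1 of the 6 arrays was left out, with adjusted p from 0.0541 without wt/wt replicate 2 to 0.114 without lox/lox replicate 1, while the difference stayed between 0.32 and 0.42. It was also lost with median centring (adjusted p = 0.053), with all 35556 probe sets tested (0.0951) with the replicate number as a block (0.0699) and without the 2 least similar arrays together (0.0972).

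H2bc1, which encodes the partner TH2B and lies head to head with H2ac1, did not pass. It stood at 7.81, 7.85 and 7.99 on the wt/wt arrays and at 8.11, 8.01 and 7.91 on the lox/lox arrays, so that the genotypes overlapped. Its log2 difference was 0.12 (95% interval -0.064 to 0.31, adjusted p = 0.516 in limma). The log2 distance of H2ac1 above H2bc1 within an array averaged 1.22 ± 0.093 on the wt/wt arrays and 1.48 ± 0.082 on the lox/lox arrays (SD, n = 3). The change in that distance, 0.26, had an exact two-sided permutation p of 0.10, the smallest that 3 arrays against 3 can give. H2ac1 entered this comparison as the only member called on the same arrays, so this p adds no separate support.

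The start sites of H2ac1 and H2bc1 are 281 bases apart in RefSeq, and most of the stretch between them, the part next to H2ac1, is shown because it lies upstream of both. The 250 bases before the H2ac1 start site are at chr13:23934187-23934436 (GRCm38.p6, plus strand), and those before the start site of H2ac4, the H2A gene with the next smallest p, are at chr13:23750838-23751087 (plus strand). Both are given 5′ to 3′. Capitals mark matches on either strand to the TATA box letters TATAAA, the CCAAT box letters CCAAT and the octamer ATTTGCAT, which is known as a binding site of Oct factors in H2B promoters.
H2ac1: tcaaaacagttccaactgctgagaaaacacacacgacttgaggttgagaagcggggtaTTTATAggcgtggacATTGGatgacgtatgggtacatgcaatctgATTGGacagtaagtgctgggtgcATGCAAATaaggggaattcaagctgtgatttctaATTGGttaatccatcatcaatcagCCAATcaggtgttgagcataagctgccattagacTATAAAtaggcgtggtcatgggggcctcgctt
H2ac4: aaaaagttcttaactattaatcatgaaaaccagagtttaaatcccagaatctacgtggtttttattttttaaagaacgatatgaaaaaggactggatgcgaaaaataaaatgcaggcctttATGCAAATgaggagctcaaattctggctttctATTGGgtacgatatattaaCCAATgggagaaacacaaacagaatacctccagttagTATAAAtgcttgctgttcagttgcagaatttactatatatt
The H2ac1 stretch held 2 TATA matches, 4 CCAAT matches and 1 octamer, and the H2ac4 stretch 1, 2 and 1. No matches overlapped in these stretches. H2ac1 passed the main test, a call that was lost with any 1 array left out, and H2ac4 did not pass. A match to letters is a description of the sequence alone.

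Promoter windows of 300 bases, 250 before and 50 after the start site, were at hand for 58 member genes (59 windows). The octamer was found in 6 of 17 H2A and 7 of 15 H2B windows and in none of the 6 H1, 10 H3 and 11 H4 windows, beside 1.74% of all 32851 promoter windows. TATAAA was found in 34 of the 59 member windows (57.6%, beside 13.6% of all), and CCAAT in 51 (86.4%, beside 37.4%). All H1, H2A, H2B and H3 windows held CCAAT, but only 3 of the 11 H4 windows did. The windows of 9 H2A and H2B pairs overlapped on opposite strands, with start sites 164 to 281 bases apart. A match in such an overlap can count for both genes. In 3 of the 9 pairs either window held an octamer, so the H2A and H2B octamer counts can include the same match. For a pair other than H2ac1 and H2bc1 both genes had their own probe set only in H2ac8 and H2bc8, with log2 differences of -0.11 and -0.15, neither of which passed.

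Of the other 3 single-gene H2A probe sets none passed. H2ac4, a core H2A gene, stood at 10.19, 10.12 and 9.88 on the wt/wt arrays and at 9.95, 9.66 and 9.67 on the lox/lox arrays. The genotypes overlapped, since wt/wt replicate 3 lay below lox/lox replicate 1. The log2 difference was -0.30 (SE 0.11, 95% interval -0.55 to -0.055), and it did not pass after adjustment (adjusted p = 0.174 in limma). H2ac15 had a wt/wt mean of 9.96 ± 0.14 and a lox/lox mean of 9.88 ± 0.021 (SD, n = 3). H2ac8, which lay below the table's median, had means of 4.29 ± 0.10 and 4.18 ± 0.11.

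**Figure D2:**
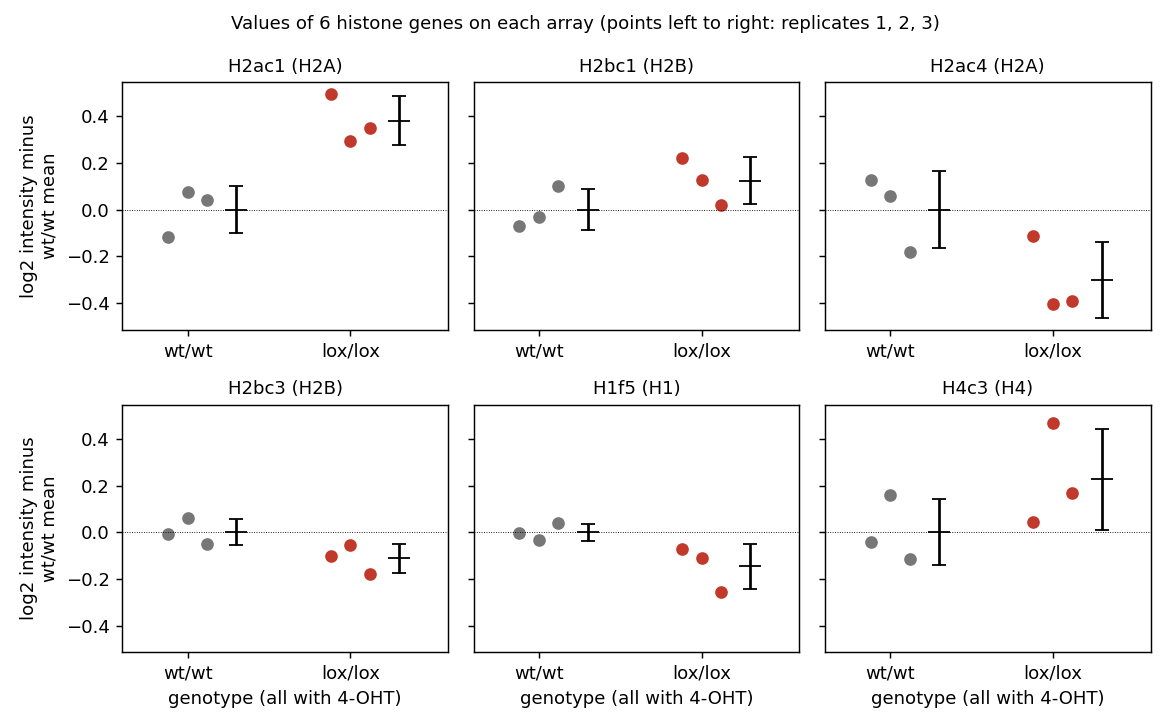
Log2 intensity minus the wt/wt mean (y axis) for 6 histone genes on the 3 wt/wt (grey) and 3 lox/lox (red) arrays, with mean and SD as bars. Only for H2ac1, H2bc3 and H1f5 among these do the genotypes not overlap, and only H2ac1 passed the test.

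Many H2A genes together were read on 2 probe sets that list 19 and 20 genes. Besides variants outside the replication-dependent set (H2ax and, on the longer list, H2aj), both name the H3 gene H3c4 and H2af-ps2. They stood at 12.83 ± 0.037 and 13.34 ± 0.019 in wt/wt cells and at 12.79 ± 0.039 and 13.31 ± 0.029 in lox/lox cells (SD, n = 3). The differences of -0.038 and -0.031 did not pass, and their intervals reached from -0.19 to 0.12. H2ac1 is on neither list.

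Many H2B genes together were read on 7 shared probe sets, none of which passed the main test. These listed 14 or 15 genes each, H2bc18 and H2bc21 not among them, and differed by -0.15 to -0.14. On each, all lox/lox arrays lay below all wt/wt arrays, as on 12.5% of all probe sets. One of them stood at 12.50, 12.57 and 12.44 on the wt/wt arrays and at 12.41, 12.37 and 12.30 on the lox/lox arrays. Another stood at 11.77, 11.83 and 11.71 against 11.65, 11.64 and 11.55, and a further one holds the same values as it. Their adjusted p in limma was not under 0.05 (from 0.309 to 0.359, 0 at an unadjusted p under 0.05), with intervals from -0.32 to 0.021. With a variance model that follows intensity and down-weights outliers (eBayes with trend and robust), 6 of the 7 were called lower, beside 4.5% of all probe sets under that model. Over all 7 the adjusted p then ran from 0.0294 to 0.0593, the last for the probe set that was not called. The 7 share their transcripts and are not 7 independent measurements.

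H2B genes with their own probe set did not share one direction. Of 9, 5 had negative and 4 positive differences, with a median of -0.019, and 0 passed in limma (0 at an unadjusted p under 0.05). H2bc3 stood at 10.24, 10.31 and 10.20 on the wt/wt arrays and at 10.15, 10.19 and 10.07 on the lox/lox arrays, without overlap (log2 difference -0.11, 95% interval -0.27 to 0.051). H2bc8 and H2bc22 had differences of -0.15 and -0.11 with adjusted p of 0.415 and 0.514 in limma. H2bc22 lay below the table's median in both genotypes. H2bc14 stood at 10.91 ± 0.049 and 10.93 ± 0.14 (SD, n = 3). H2bc18 and H2bc21, both from the chromosome 3 cluster, had differences of 0.070 and 0.0043, the latter on a probe set with means of 3.50 and 3.51, below the table's median.

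**Figure D3:**
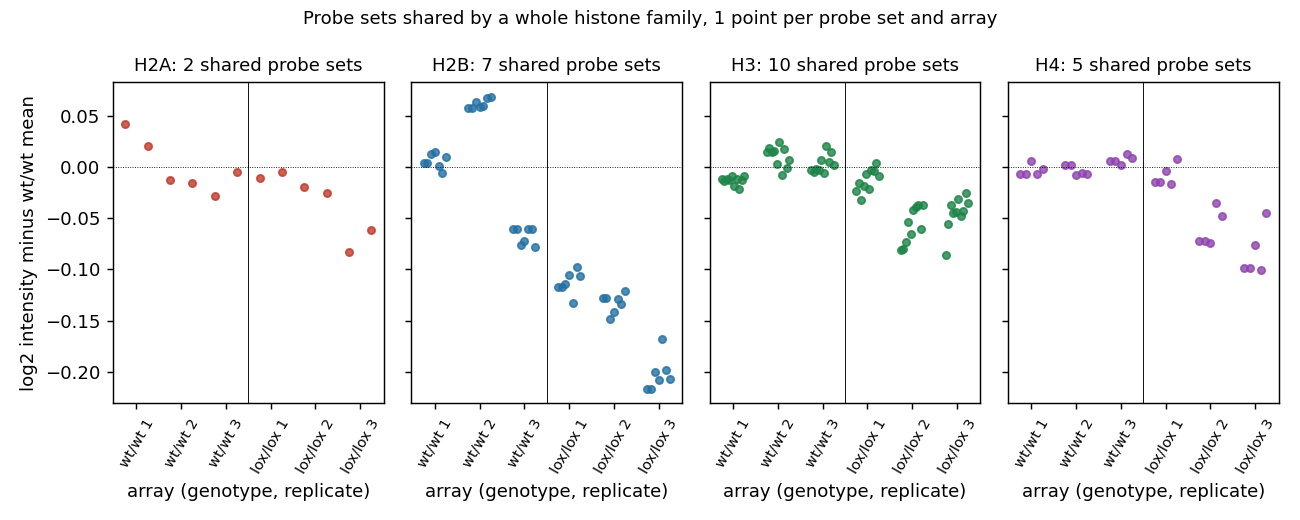
Log2 intensity minus the wt/wt mean of the same probe set (y axis) on each of the 6 arrays (x axis), 1 point per probe set. Shown are the 24 shared probe sets that list 11 to 20 genes, mainly of the H2A, H2B, H3 or H4 family. The H2B points of all lox/lox arrays lie below those of all wt/wt arrays, with lox/lox replicate 3 the lowest, and none of the 24 passed the main test.

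H3 transcripts read as a family stood at nearly the same level in both genotypes. The 10 shared H3 probe sets list 12 genes each, had means from 12.80 to 13.35 and differed by -0.064 to -0.027. Their SDs within a genotype reached 0.022 in the wt/wt group and 0.035 in the lox/lox group. On 6 of the 10 all lox/lox arrays lay below all wt/wt arrays, beside 12.5% of all probe sets. The 10 list the same 12 genes and are not 10 independent measurements. None passed (adjusted p from 0.712 to 0.895 in limma), and their intervals reached from -0.21 to 0.12. The highest value anywhere in the table was 14.59.

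The 3 single-gene H3 probe sets lay near or below the table's median. H3c15, on chromosome 3, stood at 4.48, 4.75 and 4.88 on the wt/wt arrays and at 4.22, 4.53 and 4.41 on the lox/lox arrays. The genotypes overlapped and both means lay below the table's median. Its log2 difference of -0.32 (SE 0.12, 95% interval -0.59 to -0.052) did not pass after adjustment (adjusted p = 0.186 in limma). H3c7 and H3c4 had differences of -0.14 and -0.10, with adjusted p of 0.395 and 0.719.

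No H4 gene with its own probe set passed. Of 6, 5 had positive differences, with a median of 0.097, 0 had an unadjusted p under 0.05 in limma, and the genotypes overlapped on each. H4c3 stood at 8.38, 8.58 and 8.31 on the wt/wt arrays and at 8.47, 8.89 and 8.59 on the lox/lox arrays, with overlap (log2 difference 0.23, SE 0.12, adjusted p = 0.38). H4c8, H4c9 and H4c14 had differences of 0.11, 0.092 and 0.10, and H4c4 one of -0.073. The 5 probe sets that list 11 H4 genes each, H4c14 not among them, differed by -0.062 to -0.028 at means from 12.60 to 12.88. None of them passed. On 3 of these 5 all lox/lox arrays lay below all wt/wt arrays, beside 12.5% of all probe sets. A pair among these 3 holds the same values on every array. The 5 list the same genes and are not 5 independent measurements. A probe set listing only H4c17 and H4c11 stood at 6.14, 6.09 and 6.13 on the wt/wt arrays and at 6.48, 6.33 and 6.14 on the lox/lox arrays. All its lox/lox values lay above all wt/wt values, lox/lox replicate 3 by a narrow margin (log2 difference 0.19, adjusted p = 0.323).

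Linker histone genes were measured on 5 single-gene probe sets, of which 0 passed in limma (0 at an unadjusted p under 0.05). H1f5 stood at 12.14, 12.10 and 12.18 on the wt/wt arrays and at 12.07, 12.03 and 11.88 on the lox/lox arrays. The genotypes did not overlap, but the log2 difference of -0.15 (SE 0.076, 95% interval -0.32 to 0.025) did not pass (adjusted p = 0.373 in limma). H1f1 had a difference of -0.091, and H1f2 one of -0.072. H1f6, the testis linker histone, had a difference of 0.079, and H1f3 one of 0.0061. Both of these lay below the table's median in both genotypes, so their values say little about a change. H1f4 shared its only probe set with H2bc6. This stood at 5.80, 5.76 and 5.87 on the wt/wt arrays and at 5.61, 5.70 and 5.51 on the lox/lox arrays. All lox/lox values lay below all wt/wt values, and the log2 difference of -0.20 (95% interval -0.38 to -0.024) had an adjusted p of 0.21.

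Counted over all members, 40 of the 53 differences were negative, on 25 of the 26 shared and 15 of the 27 single-gene probe sets. The median difference over all tested probe sets was -0.0055. All lox/lox arrays lay below all wt/wt arrays on 17 of the 26 shared probe sets and on 4 of the 27 single-gene ones (H1f5, H2bc3, H2bc22 and H3c7). Among these 4, H2bc22 and H3c7 lay below the table's median. The shared probe sets measure overlapping sets of transcripts, and the single-gene share of 14.8% lay near the 12.5% of all probe sets.

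The genes that make, process and use histone mRNA were then set beside the histone genes, counting 1 probe set a gene. Over all 19938 genes 2.54% were called higher and 3.51% lower, and the median difference was -0.0079. Of 25 measured genes of histone transcription, 3′ end processing and decay, 1 rose and 0 fell in limma, with a median of -0.086. At an unadjusted p under 0.05 in either direction there were 10, beside 17.9% of all probe sets. The gene that rose was Zfp473, the zinc finger protein of the 3′ end processing complex, from 5.74 ± 0.11 to 6.14 ± 0.081 (SD, n = 3, log2 difference 0.41, adjusted p = 0.0221). Removing replicate 1 or 2 of either genotype ended its call, and its adjusted p then reached 0.0836 at most.

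Slbp, which binds the stem-loop, stood at 9.37, 9.52 and 9.38 on the wt/wt arrays and at 9.16, 9.20 and 9.17 on the lox/lox arrays. The genotypes did not overlap, and the log2 difference of -0.24 (SE 0.072) had an adjusted p of 0.0939 in limma. Npat and Hinfp, which act in histone gene transcription, each had a difference of -0.25 (adjusted p = 0.206 in limma). On both, lox/lox replicate 3 overlapped the wt/wt values. Upf1, a helicase of histone mRNA decay, had one of 0.26 (adjusted p = 0.0569). None of these 4 passed. They were named after their values were seen, and all are among the 10 genes of the list at an unadjusted p under 0.05. Of the 25 genes in the list, 17 had negative differences.

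Of 24 measured histone chaperone and import genes, 1 rose and 2 fell. At an unadjusted p under 0.05 in limma there were 7, beside 17.9% of all probe sets. Rbbp7, a histone-binding subunit of several chromatin complexes, rose from 11.12 ± 0.023 to 11.58 ± 0.030 (SD, n = 3, log2 difference 0.46, adjusted p = 0.00431), and it passed without any 1 of the 6 arrays. Chaf1b, a subunit of the assembly factor CAF-1, fell by 0.37 on the log2 scale (adjusted p = 0.0259), and Daxx, a chaperone of H3.3, fell by 0.28 (adjusted p = 0.0419). Leaving out lox/lox replicate 2 gave these an adjusted p of 0.112 and 0.152, and the count of genes that fell went from 2 to 0 when replicate 1 or 2 of either genotype was removed, and to 1 when replicate 3 of either was.

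Among 14 measured replication-independent histone variants, whose mRNAs are mostly polyadenylated, 0 rose and 2 fell. At an unadjusted p under 0.05 in limma there were 4, beside 17.9% of all probe sets. H2az2, which encodes an H2A.Z, fell from 9.57 ± 0.049 to 9.20 ± 0.10 (SD, n = 3, log2 difference -0.37, adjusted p = 0.0244). Macroh2a1, which encodes macroH2A, fell by 0.31 on the log2 scale (adjusted p = 0.0477). The count went from 2 to 1 when wt/wt replicate 1 or 2 was removed, and to 0 when wt/wt replicate 3, lox/lox replicate 1 or lox/lox replicate 2 was. H2ax, which the shared H2A probe sets also list, had a difference of 0.094 on its own probe set (adjusted p = 0.613).

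**Figure D4:**
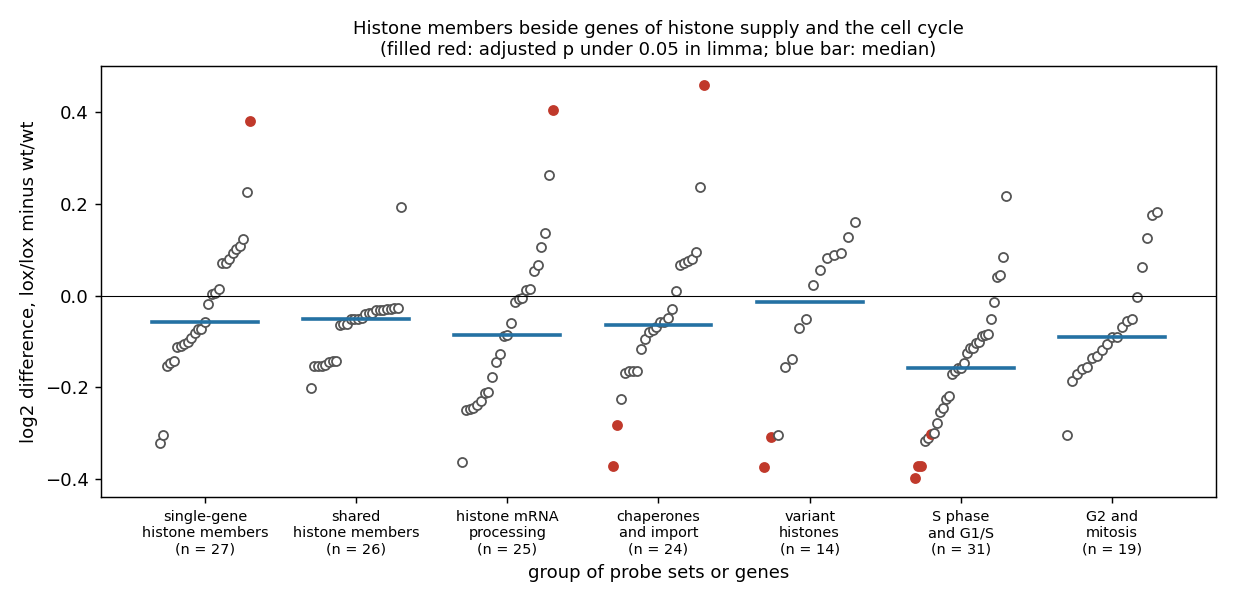
Log2 difference (lox/lox minus wt/wt, y axis) of each histone probe set and of each gene of 5 lists (x axis), with genes past an adjusted p of 0.05 filled red and the median as a blue bar. The medians run from -0.16 for the S phase genes to -0.014 for the variant histones, and both histone groups lie between.

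Because the replication-dependent genes are transcribed in S phase, genes of S phase and the G1/S transition were counted too. Of 31 measured, 0 rose and 4 fell, 27 had negative differences and the median was -0.16. At an unadjusted p under 0.05 in limma there were 15, beside 17.9% of all probe sets. Cdc45 and Mcm4, parts of the replicative helicase, fell by 0.37 and 0.40 on the log2 scale (adjusted p = 0.0203 and 0.0227). Cdc6, which loads that helicase, fell by 0.30 (adjusted p = 0.0426), and Chaf1b is in this list as well. The count of 4 became 0 with all probe sets tested, 1 with the replicate block and 10 with trend and robust. It also became 0 with replicate 2 of either genotype removed, 1 with wt/wt replicate 3 removed, 1 with lox/lox replicate 1 removed and 2 with wt/wt replicate 1 removed. Of 19 measured genes of G2 and mitosis 0 passed in limma (2 at an unadjusted p under 0.05), with a median of -0.090, and Ccnb2 had the smallest p (log2 difference -0.30, adjusted p = 0.0646). These lists are values beside the histone genes; the part of cell cycle phase in the histone values was not tested, and fewer cells in S phase and less histone mRNA per cell cannot be told apart in bulk RNA.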

How the data were processed

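Total RNA of 6 cultures was hybridised to 1 array each. The authors deposited log2 intensities, made with RMA and affy, per the submitters' processing notes; no version of either was among the sources used here. The values were used as deposited. Genes were named from the platform annotation: of 35556 probe sets, 21789 named 1 gene, 1621 several and 12146 none. The 23410 named ones were fitted with limma 3.58.1 (lmFit, eBayes; R 4.3.3), lox/lox minus wt/wt, with Benjamini-Hochberg adjustment over all of them and calls at an adjusted p under 0.05. The fit was also run on simulated data with planted differences, all larger than that of H2ac1, and without array or batch effects.

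The histone members, the gene lists and the tests were chosen with earlier results of these data known. Named were Rad21, every member called, in each histone class the 3 single-gene probe sets with the smallest p and the 2 brightest and the 2 shared with the smallest p and the brightest 1, and in each list the genes called (at most 4) or the 1 with the smallest p. Npat, Hinfp, Slbp, Upf1, H2ax, H2bc1, H2bc18, H2bc21, H1f3 and H1f6 were named after their values were seen, for their role or to complete a class. Alternatives were other normalizations, filters, variance models, the replicate number as a block and arrays left out. Genotypes share replicate numbers, but deviations of same-numbered arrays did not go together.

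Promoter sequences are from RefSeq, GRCm38.p6. Motifs were counted on both strands in windows of 300 bases.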

Additional observations from a re-analysis of the deposited data

How the results depend on the processing

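Rad21 kept its direction and its call under all 18 alternatives. The count of histone probe sets called higher, 1, became 0 with median centring, with all probe sets tested, with the replicate block, without the 2 least similar arrays together, at an adjusted p under 0.01 and at 1.5-fold or more, and ranged from 0 to 0 when 1 array was left out. The count called lower, 0, became 6 with eBayes trend and robust, all shared H2B probe sets. Over the context lists, 4 genes called higher became 2 with all probe sets tested, 2 without the 2 least similar arrays, 2 at 0.01 and 1 at 1.5-fold, and 2 to 3 with 1 array left out. The 13 called lower became 5 with all probe sets tested, 25 with trend and robust, 7 with the replicate block, 7 without the 2 least similar arrays, 5 at 0.01 and 2 at 1.5-fold, and 5 to 15 with 1 array left out. Chaperone genes called lower, 2, became 0 with all probe sets tested and 0 with the replicate block, variant genes, 2, became 0 and 1, and Zfp473 was not called with all probe sets tested. The causes were not tested, beyond that fewer arrays or a stricter threshold were used where named.

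The replicate numbers share only a number: deviations of same-numbered arrays correlated at 0.094, -0.23 and -0.094. With the replicate block 0 histone probe sets were called (H2ac1 adjusted p = 0.0699).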
